A study of Mus musculus with 4 samples.

Results

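The shared intergenic Runx3 peaks far from genes are places where chromatin immunoprecipitation (ChIP) and CUT&RUN both called Runx3 binding, in stretches of the mouse genome that hold no annotated gene nearby. A ChIP peak was taken when it lay on chromosomes 1 to 19 or X and overlapped a CUT&RUN peak by at least 1 bp. Its summit, the base with the most fragments, also had to lie outside every RefSeq gene of any biotype and over 25 kb from the nearest gene end. The choice left 252 peaks out of 13166 in the ChIP list, or 2.90% (95% exact binomial interval 2.56 to 3.27%) of the 8694 shared peaks on these chromosomes. Of the 252, 6 had a ChIP pileup over 200 and are described apart from the other 246. Pileup is the number of fragments over the summit after duplicates were removed, as the authors' peak caller wrote it. The peaks were thus chosen by overlap, distance to genes and pileup, which are given as description and carry no test.

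The cells were CD8 T cells taken with anti-CD8a beads from the spleens of adult wild type mice. Peak lists do not measure expression, so the cell type is as the labels give it. The ChIP library came from 50000000 frozen cells pooled from 5 mice, and the CUT&RUN library from 150000 fresh cells of 1 mouse, with the same rabbit anti-Runx3 serum at 1 in 200. A whole cell extract without antibody served as control of the ChIP list, and a CUT&RUN library with normal rabbit serum was not analysed here. There was 1 library per group, so no difference between assays or peaks has a replicate check, and all p-values are left out. After duplicate removal 9532996 ChIP and 14068364 CUT&RUN fragments remained; 80.3% of the ChIP fragments had been duplicates, against 21.4% in CUT&RUN. Intervals on pileups are exact 95% Poisson intervals. They cover only counting error of the fragments kept after duplicate removal, and not the spread between libraries or mice.

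Runx3 belongs to the RUNX transcription factors, which bind DNA through their Runt domain, together with the partner subunit Cbfb, at sites that read TGTGGT on one strand and ACCACA on the other. In CD8 T cells Runx3 is known to silence Cd4, to support cytotoxic genes and to help set the positioning of T cells in tissues. Much of the control of lymphocyte genes is known to rest in enhancers, which can lie far from the gene and can skip nearer genes, so a peak's neighbours are named here as positions only.

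Letters of the far peaks themselves were not used here. Of the listed genes named below as neighbours, Runx3 and Gzmb also had a shared summit in the bases before their own start, and those letters are shown as an example of Runx3 peaks with the RUNX letters. The runs are from RefSeq, build GRCm38.p6 (mm10), on each gene's strand, cover up to 50 bp on each side of the ChIP summit and stop before the gene's start; TGTGGT or its complement ACCACA is in capitals.
Runx3, chr4:135120475-135120575, plus strand: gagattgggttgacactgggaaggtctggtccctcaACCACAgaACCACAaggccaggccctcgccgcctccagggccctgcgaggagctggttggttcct
Gzmb, chr14:56262335-56262429, minus strand: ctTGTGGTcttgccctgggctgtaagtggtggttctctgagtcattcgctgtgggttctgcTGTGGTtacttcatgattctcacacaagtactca
Each of these 2 runs held 2 matches, the most among the runs cut in this way at flanking genes. Most of the others held none, among them those of Rbx1 (ChIP pileup 56), Fam53a (33) and Tigit (25). At Runx3 this promoter peak had pileups of 58 in ChIP and 180 in CUT&RUN, and at Gzmb 24 and 51. Over all 32619 RefSeq promoter windows of 300 bases, 16.6% held TGTGGT on either strand. Among the 2557 windows with a shared ChIP summit the share was 21.2%, and among the 42 such windows of genes that flank a far shared peak it was 23.8%. Over all 323 windows of flanking genes, with or without a summit, it was 9.91%, below the share over all windows. The related letters TGCGGT, also searched on both strands, were in 6.44% of all windows, 21.9% of those with a shared summit, 8.36% of flanking genes' windows and 19.05% of flanking genes' windows with a summit. A match describes letters and is not a proven site.

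Far shared peaks flanked several genes of T cell traffic, regulation and effector function. The gene with the most far shared peaks on its flanks was S1pr1, which encodes the sphingosine-1-phosphate receptor that lets T cells leave lymphoid organs. Its 8 peaks stood on both sides of the gene (chromosome 3, 115710433 to 115715055), 4 on each. At lower coordinates the summits lay at 115669475, 115673875, 115679209 and 115682833, from 27.6 to 41.0 kb off the gene. Their ChIP pileups were 23, 32, 31 and 20, and their CUT&RUN pileups 94, 78, 46 and 76. At higher coordinates the summits lay at 115799456, 115801029, 115801489 and 115815738, 84.4 to 101 kb off. There the ChIP pileups were 23, 20, 14 and 36, and the CUT&RUN pileups 96, 24, 31 and 100. The last of these was the highest in both assays (ChIP interval 25.2 to 49.8, CUT&RUN 81.4 to 122). Its intervals overlapped those of the next highest beside S1pr1, 32 in ChIP (21.9 to 45.2) and 96 in CUT&RUN (77.8 to 117). This last peak stood in the top 2.61% of the ChIP list and lay nearer to Dph5, at 72.4 kb. The others on that side lay about midway, 84.4 to 86.4 kb from S1pr1 and 86.6 to 88.7 kb from Dph5. The CUT&RUN partners of 5 of the 8 were in the top 10% of their list. A shared peak also lay within 1 kb of an end of S1pr1.

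Cxcr4, the chemokine receptor that holds lymphocytes in bone marrow and lymphoid tissue, had 4 far shared peaks, all at higher coordinates on chromosome 1 and 154 to 241 kb off. At 128746143, 128767109, 128787087 and 128832822 the ChIP pileups were 9, 22, 29 and 13, and the CUT&RUN pileups 36, 54, 42 and 14. The highest was that at 128787087 in ChIP and that at 128767109 in CUT&RUN. Their intervals overlapped in ChIP (19.4 to 41.6 and 13.8 to 33.3) and in CUT&RUN (30.3 to 56.8 and 40.6 to 70.5). Ccr7, the receptor that guides naive T cells into lymph nodes, had 1 peak 27.2 kb off, with pileups of 20 in ChIP and 26 in CUT&RUN. Tns4 lay about as far on the other side of that peak, at 27.7 kb.

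Lef1, a transcription factor of naive and memory T cells, had 4 far shared peaks at lower coordinates, 45.2 to 96.2 kb off. The summits at 131014069 and 131014470 were separate ChIP peaks with pileups of 9 and 17, and their CUT&RUN partners had 20 and 101. The others, at 131057393 and 131065145, had 15 and 10 in ChIP and 67 and 19 in CUT&RUN. Pileups at Lef1 thus ran from 9 to 17 in ChIP and from 19 to 101 in CUT&RUN. Bcl11b, which is needed to commit cells to the T lineage, had 3 peaks in a group 750 to 771 kb off (chromosome 12, 107139267, 107148654 and 107160318) and 1 at 107779440, 131 kb off. Their ChIP pileups were 14, 9, 21 and 8, and their CUT&RUN pileups 43, 16, 37 and 37. The group lay nearer to Gm52008, a predicted protein-coding gene, at 27.1 to 48.2 kb. Id2, an inhibitor of E proteins in effector cells, had 3 peaks 688 to 962 kb off with pileups of 11 to 13 in ChIP and 13 to 41 in CUT&RUN. All 3 lay nearer to Rnf144a, at 249 to 522 kb.

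Among other regulators, Gata3, a factor of T cell development, had a strong peak 337 kb off at chromosome 2, 9520276, with 29 (19.4 to 41.6) in ChIP and 94 (76.0 to 115) in CUT&RUN. Its other 2 peaks, 167 and 173 kb off, both had 13 in ChIP and 57 and 23 in CUT&RUN. Foxo1, which maintains naive T cells, had 3 peaks at higher coordinates, 46.4, 490 and 528 kb off, with ChIP pileups of 24, 32 and 23 and CUT&RUN pileups of 52, 86 and 55. The last pair lay nearer to Cog6, a Golgi gene, at 142 and 104 kb. Satb1, a chromatin organiser of T cells, had 2 peaks 616 and 635 kb off with 23 and 29 in ChIP and 78 and 54 in CUT&RUN. Both lay nearer to Kcnh8, a potassium channel gene, at 154 and 134 kb. Runx3 itself had 2 neighbouring peaks 39.99 and 40.56 kb off, with 15 and 21 in ChIP and 24 and 46 in CUT&RUN, beside the promoter peak whose letters are given above.

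Tox and Myc each had 2 far shared peaks. Tox, a factor of persistent T cell stimulation, had peaks 350 and 543 kb off with ChIP pileups of 11 and 8 and CUT&RUN pileups of 41 and 14. Myc, which drives growth on activation, had peaks 334 and 573 kb off with 9 and 14 in ChIP and 29 and 23 in CUT&RUN, and the farther one lay nearer to A1bg (491 kb). Bach2, a repressor that restrains effector cells, had 1 peak 111 kb off (11 and 59) and 104 kb from Map3k7, Klf6 1 at 104 kb (16 and 28) and Nr4a3, an immediate-early nuclear receptor, 1 at 32.6 kb (14 and 47), ChIP before CUT&RUN. These ChIP pileups, 8 to 16, lay from below the first quartile of the 246 peaks (11) to just above their median (15).

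Genes of effector function and signalling also stood beside far shared peaks. Ifng, the gene of interferon gamma, had peaks 154 and 188 kb off at chromosome 10, 118599825 and 118633559, with ChIP pileups of 28 and 11 and nearly equal CUT&RUN pileups of 50 and 53. Tgfbr2, a chain of the receptor for TGF-beta, had peaks 88.7 and 191 kb off, with ChIP pileups of 12 and 30 and CUT&RUN pileups of 41 and 60. Fasl, the ligand that kills through Fas, had 1 peak 110 kb off (17 and 37). Gzmb, the gene of granzyme B, had 1 peak 52.3 kb off (16 and 18), with Atp12a 50.02 kb away on the other side. Ptprc, Icos and the kinase gene Fyn each had 1 peak, 57.5, 45.9 and 29.7 kb off, with ChIP pileups of 18, 11 and 10; that of Ptprc lay nearer to Atp6v1g3 (40.4 kb).

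**Figure D1:**
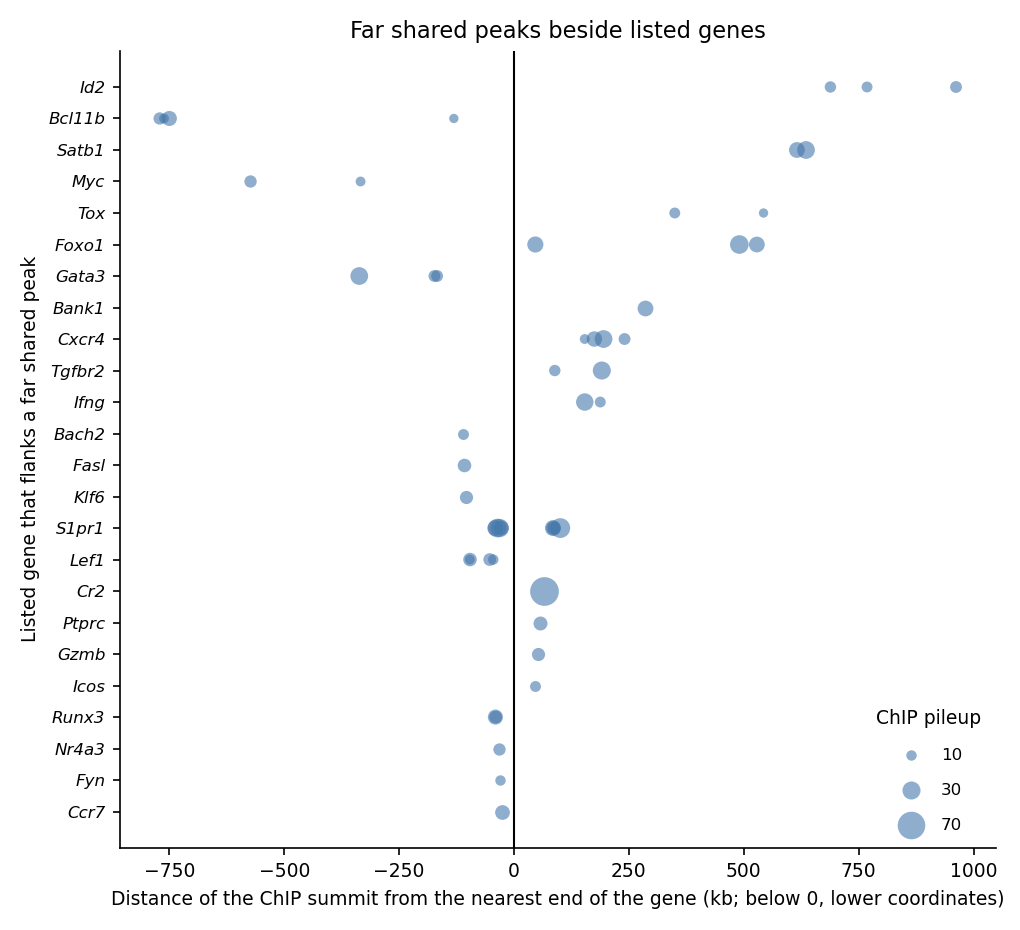
Far shared peaks beside the 24 listed genes that flank one: the x axis gives the distance of each ChIP summit from the nearest end of the gene in kb (below 0 at lower coordinates), each row is a gene, and the area of a point follows the ChIP pileup. S1pr1 has 4 peaks on each side, and the farthest peaks of Satb1, Bcl11b and Id2 lie 635, 771 and 962 kb off. The 24 include Cr2 and Bank1, which are B cell markers.

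Counted by list, 12 of 30 T cell regulators known for gene-poor surroundings or distal enhancers flanked a far shared peak, 6 of 25 genes of effector function and trafficking, 3 of 24 of T cell receptor signalling and identity, and 1 of 26 of cytokine receptors and signalling. A gene flanked a peak when it was the nearest protein-coding gene on one side of it. Of the 52 peaks flanked by a gene of any list, the B cell markers described below included, 16 lay nearer to the protein-coding gene on the other side. Over all 21627 protein-coding genes the share was 1.46% (316 genes), a figure that takes no account of how long the gene-free stretch beside a gene is. The 28 peaks beside the regulators had median pileups of 14 in ChIP and 41 in CUT&RUN, and the 17 beside effector and trafficking genes 20 and 46, against 15 and 40.5 over all 246. The lists were chosen with earlier results known, so these counts are no independent evidence of a direction. Beside far ChIP peaks that overlapped no CUT&RUN peak stood 6, 1, 1 and 0 genes of the same lists, against 1.83% of all protein-coding genes.

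Markers of other spleen cells had 2 of 49 genes beside a far shared peak, both from the B cell list of 15. The share on the B cell list was thus 13.3%. On the T cell lists it was 40% (regulators), 24% (effector function), 12.5% (receptor signalling and identity) and 3.85% (cytokine receptors). Over all protein-coding genes it was 1.46%. The regulators were listed for gene-poor surroundings or distal enhancers, which favours a place beside far peaks. Their 40% thus cannot be read as a difference between cell types. Bank1 had 1 peak 286 kb off, nearer to Ppp3ca, a catalytic subunit of calcineurin (57.8 kb), with pileups of 23 and 27. Cr2 had 1 peak 64.8 kb off with 76 in ChIP and 45 in CUT&RUN, in a stretch where the ChIP background was 11.5 times the list's median. None of 18 myeloid and dendritic, 8 NK cell and 8 erythroid markers flanked one. The part of other cells in the peaks was not tested.

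Genes that flank a far shared peak often held a shared peak of their own. Of the 316, 139 (44.0%, 38.4 to 49.7%) had one in the gene or within 10 kb, against 31.9% of all protein-coding genes. Of the 396 genes beside far peaks called by ChIP only, 105 (26.5%, 22.2 to 31.2%) had one. Within 1 kb of a gene end the shares were 22.5% (17.99 to 27.48%), 17.3% over all genes and 13.9% (10.6 to 17.7%). Flanking genes were longer, with a median of 43.0 kb in the former group and 46.2 kb in the latter, against 17.3 kb over all, and the part of length in these shares was not tested. Of the 24 listed genes beside a far shared peak, 20 had a shared peak in the gene or within 10 kb, and 9 within 1 kb of an end. The 24 include Id2, Ifng and the B cell markers Cr2 and Bank1, which had neither. Listed genes that flank no far shared peak were not counted in this way. Whether the 20 reflect flanking or the choice of the lists was thus not tested.

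Outside the lists, the highest far peaks at ordinary background lay beside varied genes. The highest in ChIP, at chromosome 3, 38280379 (38280080 to 38280616), had 53 (39.7 to 69.3) in ChIP and 165 (141 to 192) in CUT&RUN, in the top 0.479% and 0.994% of the lists. It lay 169 kb from Ankrd50. At chromosome 16, 51690990, a peak with 48 in ChIP (35.4 to 63.6) and 140 in CUT&RUN (118 to 165) lay 340 kb from Cblb, the gene of an E3 ubiquitin ligase that restrains T cell activation. Cblb had 3 more, with ChIP pileups of 12, 11 and 9 and CUT&RUN pileups of 46, 53 and 22, the nearest of them 224 kb off. On chromosome 18, 81400382 had 45 and 91 and lay between Sall3 and Galr1.

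The highest CUT&RUN pileup among the 246 was 193 (167 to 222), at chromosome 12, 21480404, where ChIP had 43 (31.1 to 57.9). With a second peak at 21451534 (35 and 135), it lay 63.0 and 34.1 kb from Ywhaq, a 14-3-3 protein gene. Plcl2, a phospholipase C-like gene, had the next CUT&RUN peak, 38.3 kb off at chromosome 17, 50470559, with 169 (144 to 196) in CUT&RUN and 23 (14.6 to 34.5) in ChIP. Pde7a, which encodes a phosphodiesterase that breaks down cyclic AMP, was 119 kb from a peak with 33 and 143, which lay nearer to Dnajc5b (78.2 kb). Spsb1 was 39.8 kb from a peak with 27 and 137, and Klf13 163 kb from one with 42 and 109, which lay nearer to Gm45988, a predicted protein-coding gene (28.99 kb). Between Stmnd1 and Rbm24 on chromosome 13, 46340093 had 31 and 114. Ctsc, the gene of cathepsin C, which activates granzymes, was 71.4 kb from a peak with 39 in ChIP and 106 in CUT&RUN, and Grm5 lay about as far on its other side (71.6 kb). Ctsc and the weaker Cblb peaks were picked out after their values were seen.

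Some far shared peaks came in groups, while 134 of the 246 stood alone. Of the 246, 112 (45.5%, 39.2 to 52.0%) lay within 50 kb of another, and these formed 45 groups of 2 to 5. The largest stood between Glrp1 and Arl4c, a small GTPase gene, on chromosome 1. Its 5 summits, from 88610922 to 88661443, had ChIP pileups of 13, 8, 15, 29 and 12 and CUT&RUN pileups of 21, 30, 47, 81 and 43, and the fourth was the highest in both assays. Groups of 4 stood on each side of S1pr1, beside Cxcr4, beside Lef1, and between Pmepa1 and 1700021F07Rik on chromosome 2, where ChIP pileups were 12 to 22 and CUT&RUN pileups 16 to 102. Tle3 and Tle4, genes of Groucho corepressors that bind RUNX proteins, were picked out after their values were seen: they had 2 and 3 far shared peaks, with ChIP pileups of 23 to 30 and 10 to 21, 284 to 290 kb and 70.6 to 97.3 kb off. Both Tle3 peaks lay nearer to Rplp1 (205.2 and 210.5 kb). With any shared peak as neighbour, 62.2% (55.8 to 68.3%) of the 246 had one within 50 kb. Among intergenic shared peaks within 25 kb of a gene the share was 67.2% (65.4 to 68.9%). Among all shared peaks that were not far it was 68.5% (67.5 to 69.5%).

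**Figure D2:**
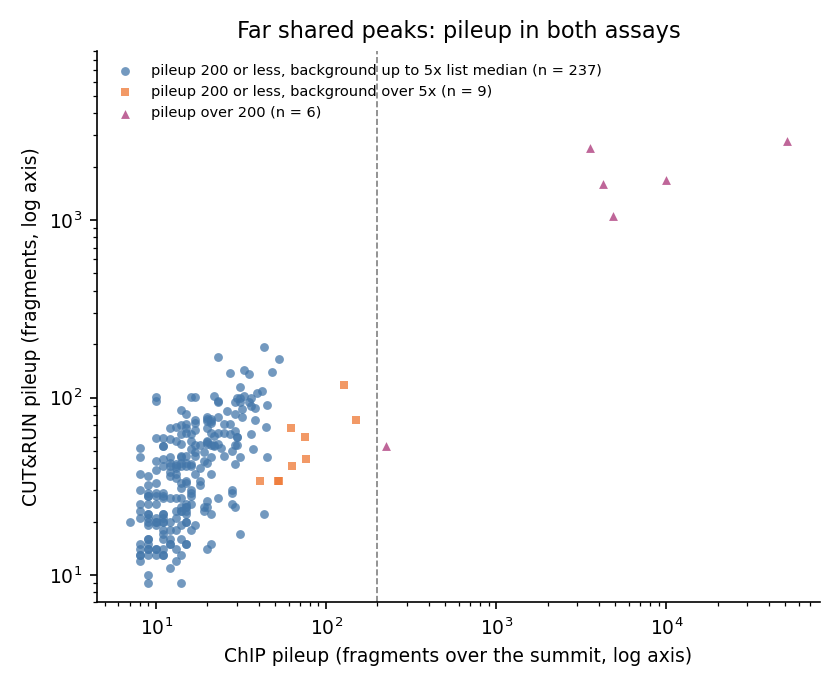
ChIP pileup (x axis, fragments, log scale) against CUT&RUN pileup (y axis, fragments, log scale) of the 252 far shared peaks; each point is 1 peak, and the dashed line marks a ChIP pileup of 200. The 9 squares with high background have CUT&RUN pileups of 34 to 117, and 5 of the 6 triangles are far above all others in both assays.

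Heights ranged widely and went together across the assays. ChIP pileups of the 246 ran from 7 to 149 (median 15, quartiles 11 and 23) and CUT&RUN pileups from 9 to 193 (median 40.5, quartiles 22 and 62). Spearman's rho of the pileups was 0.617 over these 246 peaks and 0.626 over the 237 without high background, as a description over peaks that share their libraries. Over the 8433 shared peaks that were not far it was 0.507. The weakest in ChIP, at chromosome 9, 96437237 between Atp1b3 and Rnf7, had 7 in ChIP and 20 in CUT&RUN. Between distance from genes and pileup rho was -0.00987 in ChIP and 0.0207 in CUT&RUN. The median distance between the ChIP and CUT&RUN summits was 29 bp, and 69.9% (63.8 to 75.6%) lay within 50 bp, against 63.6% of the other shared peaks.

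Set beside other classes of pileup 200 or less, the far peaks were similar in ChIP and somewhat higher in CUT&RUN. Intergenic shared peaks within 25 kb of a gene (2816) had a median ChIP pileup of 14 and CUT&RUN pileup of 33, and shared peaks within 1 kb of a protein-coding gene end (3318) had 13 and 29. The 95% interval of the far peaks' median CUT&RUN pileup was 34 to 44, against 32 to 34 and 28 to 30. Of the far peaks, 23.2% (18.05 to 28.95%) had a partner in the top 10% of CUT&RUN peaks, against 14.8% (14.1 to 15.6%) of shared peaks that were not far. In ChIP the shares in the top 10% were 16.7% (12.2 to 21.9%) and 14.3% (13.54 to 15.04%), whose intervals overlap. These intervals cover counting over peaks of 1 library, and the difference was not tested. ChIP peaks were a median of 301.5 bp wide, against 318 and 332 bp in those classes.

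**Figure D3:**
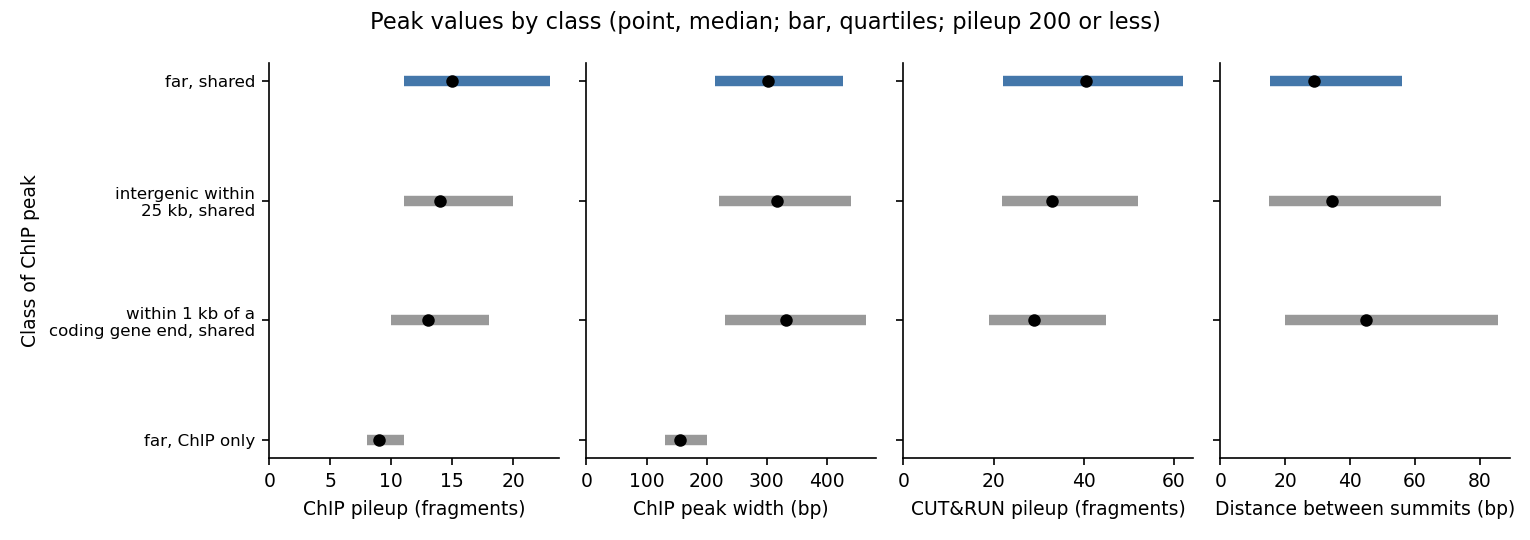
Medians (points) and quartiles (bars) of ChIP pileup, ChIP peak width in bp, CUT&RUN pileup and distance between the summits in bp, for 4 classes of ChIP peak with pileup of 200 or less; far ChIP-only peaks have no CUT&RUN values. The far shared peaks have the highest median CUT&RUN pileup of the 3 shared classes, 40.5.

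Beyond 25 kb from genes, a smaller share of ChIP peaks was shared. Overall 66.6% of ChIP peaks overlapped a CUT&RUN peak, and of the 492 over 25 kb from a gene 51.2% (46.7 to 55.7%) did; this share is part of how the peaks were chosen and is a description. Nearer to genes there was no steady fall: the share was 66.4% inside a gene, 73.7% within 1 kb, 62.4% at 1 to 5 kb and 66.0% at 5 to 10 kb. It was 64.2% (60.4 to 67.9%) at 10 to 25 kb, 59.0% (53.0 to 64.8%) at 25 to 50 kb, 48.3% (39.9 to 56.7%) at 50 to 100 kb and 23.4% (13.8 to 35.7%) over 100 kb. Median ChIP pileups in the last 4 bins were 12, 12, 11 and 9. Among ChIP peaks of pileup 9 or less, 17.3% (12.1 to 23.5%) of far and 40.3% (38.7 to 42.0%) of other peaks were shared; at 15 to 24 it was 80.4% (71.1 to 87.8%) and 88.3% (87.1 to 89.4%). In the other direction 50.2% (46.0 to 54.3%) of 574 far CUT&RUN peaks overlapped a ChIP peak, against 59.0% of the rest. The 240 far ChIP-only peaks had a median pileup of 9 and a median width of 155 bp.

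**Figure D4:**
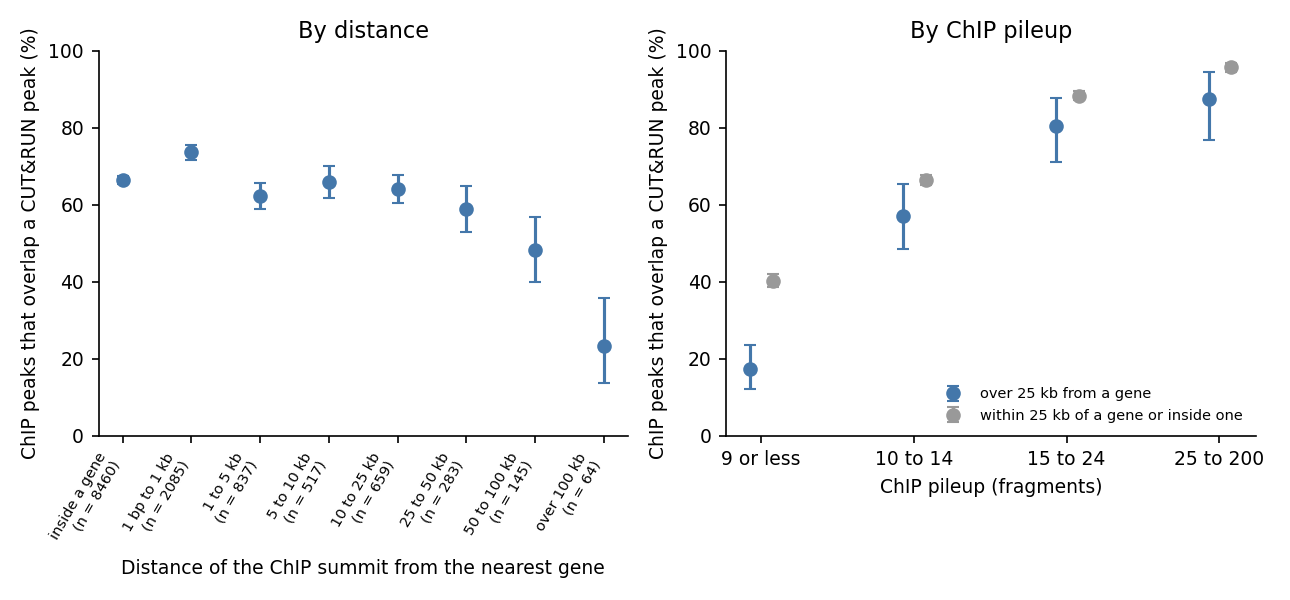
Percent of ChIP peaks that overlap a CUT&RUN peak, by distance of the summit from the nearest gene (left) and by ChIP pileup in fragments (right, far peaks in blue and others in grey); bars are exact 95% binomial intervals. The share falls to 23.4% over 100 kb from genes and rises with pileup in both sets.

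Sequence over 25 kb from every gene made up 25.04% of the span between the outermost genes (654 of 2612 Mb) and held 242 of the 246 peaks, or 0.370 per Mb, against 4.31 shared peaks per Mb elsewhere. Assembly gaps were not taken out. All 20 chromosomes had at least 1. Chromosome 3 had 33 (0.644 per Mb of far sequence), among them the 8 of S1pr1 and the 4 of Lef1, and chromosome 13 had 17 (0.619). The X chromosome had 3 in this span (0.0492 per Mb), and its density of all shared peaks was also low, 0.603 per Mb against 3.32 over all chromosomes.

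**Figure D5:**
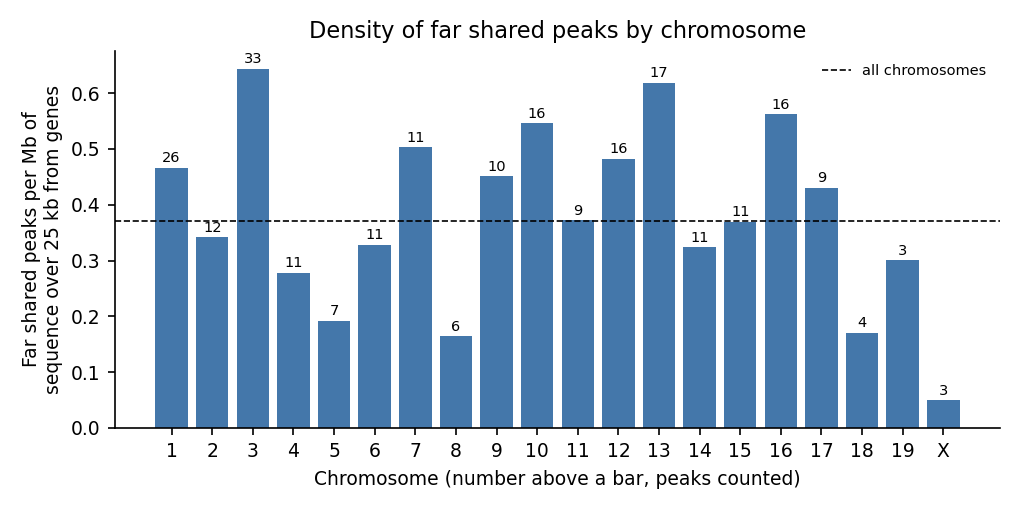
Far shared peaks of pileup 200 or less per Mb of sequence over 25 kb from genes, by chromosome; the number above each bar is the count of peaks, and the dashed line is the value over all chromosomes, 0.370. Chromosome 3 has the highest bar and X the lowest.

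The nearest gene was most often not protein-coding. It was a long non-coding RNA for 96 of the 246, a protein-coding gene for 81 and a pseudogene for 46. Of the 49550 RefSeq genes used for distance, 21627 were protein-coding, so most genes were of other biotypes in any case. The nearest protein-coding gene lay a median of 71.1 kb away (quartiles 40.5 and 154 kb) and over 100 kb away for 93. The farthest from any gene, at chromosome 10, 36158223, lay 304 kb from Gm40623 and had pileups of 15 and 24. Next came X 170881137 (203 kb, 21 and 63), chromosome 8 127963151 (157 kb, 8 and 15), chromosome 9 85120269 (144 kb, 37 and 51), 200 kb from Tent5a, and the peak at 128746143 beside Cxcr4 (140 kb). Just inside the limit lay shared peaks 25.1, 25.1 and 25.3 kb from a gene, with ChIP pileups of 36, 36 and 15, and just outside it peaks at 24.9, 24.8 and 24.8 kb with 16, 22 and 10.

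The 6 peaks of pileup over 200 lay on 4 chromosomes and stood in stretches of very high background in ChIP. Background is taken here as pileup plus 1 over fold, where fold is the caller's ratio of the summit to the expected level. It was at 1 common value for 97.4% of ChIP peaks, and 16.1 to 1323 times the list's median behind these 6. On chromosome 2, 3 of them, with summits at 98662619, 98665113 and 98666983, had ChIP pileups of 10013, 4244 and 51149 and CUT&RUN pileups of 1675, 1589 and 2791. They lay 35.6 to 39.98 kb from Gm33780 and 1031 to 1035 kb from Lrrc4c. Despite the heights their folds were 10.04, 5.94 and 18.2, below the fold of 25.4 at the Ankrd50 peak with a pileup of 53.

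On chromosome 9 a single ChIP peak of 38218 bp (3000016 to 3038233) had a pileup of 4823 and overlapped 66 CUT&RUN peaks, with 1049 at the partner. On chromosome 12, 3109977 had 3542 in ChIP and 2534 in CUT&RUN. The sixth, at chromosome 3, 5860554, had 224 (196 to 255) in ChIP and 53 (39.7 to 69.3) in CUT&RUN and was the nearest above the limit. At these first 5 the CUT&RUN background was also high, 17.2 to 135 times its list's median, and at the sixth it was 1.39 times. The nearest below the limit had 149, 128 and 76 in ChIP.

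High background was not confined to those 6. Of the 246, 9 (3.66%, 1.69 to 6.83%) had a ChIP background over 5 times the list's median, against 0.403% (0.279 to 0.563%) of shared peaks that were not far. Their ChIP pileups were 41 to 149, their CUT&RUN pileups 34 to 117 and their ChIP folds 1.78 to 4.85, against a median fold of 7.06 over the 246. They included 8 of the 15 highest among the 246; 5 of those 15 were at the common value and 2 lay between. Those 2 were the peak 124 kb from Fgf14 (chromosome 14, 124801836, 45 and 46) and one between Tcp10c and Tcte2 (chromosome 17, 13590251, 43 and 22). Of the 9, 4 were on chromosome 16 between 3115502 and 3351142, 2 on chromosome 3 near 8245374, and the others at chromosome 4 64498017, chromosome 1 195241712 and chromosome 2 3050298. The part of background in these peaks was not tested, and without the 9 the median pileups were 15 in ChIP and 40 in CUT&RUN.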

How the data were processed

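Bowtie (mm10) and MACS2 are named in the submitters' processing notes; the aligner's version is not given in the sources used here. Both lists were made by the authors with MACS2 2.1.1.20160309 from paired-end fragments, at most 1 kept per position, per the file headers. ChIP was called against whole cell extract with a q cutoff of 0.05. CUT&RUN was called with 1e-05 and no control, on an alignment named for nucleosome-free fragments. The deposited lists give for each peak the pileup (a coverage signal in fragments), the fold enrichment (a ratio to expected background) and −log10 p and q values. The CUT&RUN background came from the same library, so its folds are not like those of ChIP. Each library was called on its own; pileups of the assays are on different scales and are set side by side or compared by rank only.

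From these, overlap (at least 1 bp, checked with bedtools 2.31.1), distance to 49550 RefSeq genes of GRCm38.p6 (mm10), groups by single linkage at 50 kb and flanking protein-coding genes were computed with Python 3.11.15; functions were tested on simulated peaks. Where several CUT&RUN peaks overlapped, the one with the nearest summit was the partner. Shares have exact Clopper-Pearson intervals and medians order-statistic intervals, both for counting over peaks. Planned motif counts at the far peaks were not made, since no genome sequence was used. The peaks and the 8 gene lists (154 entries, all matched) were chosen with earlier results of these data known. Named were the peaks over pileup 200, the 15 highest others in ChIP and 10 in CUT&RUN, the 5 farthest, those flanked by listed genes, the largest groups and those at the limits; peaks beyond this rule are marked as picked after their values were seen. One peak that this rule names is not reported here.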

Additional observations from a re-analysis of the deposited data

Results flagged for a closer look

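Outside chromosomes 1 to 19 and X, in data that the choice of chromosomes leaves out, 27 further ChIP peaks overlapped a CUT&RUN peak; they lie on Y or on contigs and were not placed relative to genes here.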

How the results depend on the processing

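Of 72 values (8 results under 9 alternatives), 54 stayed within 1.5 times the count or within the 95% interval. The number of peaks follows the definition. With at least 0.5 of the ChIP peak covered it was 149, with a median CUT&RUN pileup of 45, a median ChIP width of 275 bp and 34.2% within 50 kb of another. Over 10 kb from a gene there were 664 peaks, 11 of pileup over 200 and 43 listed genes, and over 50 kb there were 83, 2 and 11. With distance from protein-coding genes only there were 941, 12 and 45, with 56.7% within 50 kb of another. ChIP peaks with −log10 q of at least 5 had medians of 17 in ChIP and 46 in CUT&RUN and a width of 332 bp. With the split at background over 5 times the median, 15 peaks stood apart. The 83 peaks over 50 kb from a gene had pileup medians of 16 and 41. No paired analysis was possible because each group had 1 library, which also left no replicate to leave out.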
